A study of Mus musculus with 4 samples.

Results

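Interferon-high endothelial cells were 223 of the 2268 capillary-type endothelial cells in single-cell libraries of mouse hindlimb muscle (9.83%), taken from 7086 barcodes in all. They were chosen by their unique molecular identifiers (UMIs, each the count of 1 captured RNA molecule) of named genes. A barcode counted as a cell from 200 genes and 500 UMIs upward, with no more than 20% of its UMIs mitochondrial. It counted as endothelial with at least 3 UMIs of Pecam1, Cdh5, Egfl7 and Cldn5 summed and none of Ptprc, Pdgfra or Pax7. It counted as capillary-type with fewer than 3 UMIs of the arterial genes Sema3g, Gja5, Stmn2, Gkn3 and Alpl, fewer than 3 of the venous genes Ackr1, Vwf and Selp, and fewer than 2 of the tip cell genes Apln, Prnd and Esm1. A capillary-type cell was interferon-high with at least 3 UMIs of Ifit1, Ifit2, Ifit3 and Rsad2 summed, and the other 2045 cells, with fewer than 3, served as the comparison.

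The study irradiated 1 hindlimb of male C57Bl/6J mice with 3 X-ray fractions of 8.2 Gy at 5 weeks of age, under a lead shield for the rest of the body. CON_24h and CON_56d are the shielded opposite limbs, and IR_24h and IR_56d the irradiated limbs, removed 24 hours after the last fraction or 56 days after irradiation. Each group is 1 library of live, mononucleated cells sorted from a pool of 3 limbs, so no difference between groups was tested, and the controls come from animals that were themselves irradiated on the other side. Groups of 4 values follow the order CON_24h, IR_24h, CON_56d, IR_56d. The libraries held between 4715202 and 10121978 UMIs, library pairs shared 1 to 3 barcode sequences, and no interferon-high cell had its barcode in another library.

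Interferons are secreted signals that a cell releases on sensing foreign or misplaced nucleic acid. Type I interferons bind the receptor pair Ifnar1 and Ifnar2, whose kinases Jak1 and Tyk2 activate transcription factors that include Stat2 and Irf9, and these enter the nucleus and bind the interferon-stimulated response element upstream of antiviral genes. Interferon-gamma acts through its own receptor and raises guanylate-binding proteins and antigen presentation genes. Capillary endothelial cells that carry this programme have been described as a minor state in several mouse tissues.

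The members were endothelial by genes that the rule did not use. Kdr, the main receptor for vascular endothelial growth factor, stood at 1521, 1231, 1967 and 1319 CPM (the UMIs of a gene per 1000000 UMIs summed over the cells) in members and 1605, 1226, 1843 and 1619 in the other cells. Fabp4, the fatty acid carrier of muscle capillaries, was found in 222 of 223 members. T cell markers (Cd3e, Cd3d, Trbc2) and plasmacytoid dendritic cell markers (Siglech, Ccr9) were at 0 UMIs in members of every library. Siglech and Ccr9 were at 0 in the other cells too, and the rule left out cells with Ptprc. These zeros therefore do little to set members apart. The lymphatic markers Prox1, Lyve1, Mmrn1 and Reln were also at 0 in members. The fifth lymphatic marker, Flt4, had 10, 11, 19 and 18 UMIs in members. Pericyte markers had at least 1 UMI in 35.4% of members and 33.5% of the other cells, myeloid markers in 17.0% and 9.63%, and erythroid markers in 40.4% and 29.3%. Of the members, 15 held 20 or more UMIs of 1 other cell type's marker list. Btnl9, a butyrophilin-like surface protein given as a marker of these cells, was found in 21.5% of members and 14.4% of the other cells.

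Members were more deeply sequenced than the cells they are compared with. Their median was 4260, 3843, 3947 and 4289 UMIs per cell, against 2733.5, 2854, 2580 and 2706 in the other cells. A cell with more UMIs is more likely to reach 3 of any 4 genes, so shares are also given after each cell was thinned at random to 1000 UMIs. The median mitochondrial share was lower in members of every library, at 2.35%, 2.95%, 2.57% and 2.13% against 3.55%, 3.91%, 3.53% and 2.69%.

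Interferon-high cells were least frequent in the irradiated limb at 24 hours and most frequent in the irradiated limb at 56 days. They made up 13.7% of capillary-type cells in CON_24h (47 of 343, exact 95% binomial interval 10.2 to 17.8), 4.91% in IR_24h (55 of 1121, 3.72 to 6.34), 13.2% in CON_56d (72 of 546, 10.5 to 16.3) and 19.0% in IR_56d (49 of 258, 14.4 to 24.3). The intervals cover counting error only. They did not overlap at 24 hours and overlapped at 56 days. The rule fixed these shares, so they are a description.

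The gap between limbs lay in different ranges of rule UMIs at each time. Cells with 10 or more UMIs of the 4 genes, a limit chosen after the counts were seen, made up 1.75% (6 cells, 0.645 to 3.77), 1.69% (19 cells, 1.02 to 2.63), 2.75% (15 cells, 1.55 to 4.49) and 6.98% (18 cells, 4.19 to 10.8) of capillary-type cells. At 24 hours these shares were alike in both limbs, and the gap lay in cells with 3 to 9 UMIs, at 12.0% in CON_24h and 3.21% in IR_24h. At 56 days the share with 3 to 9 UMIs was 10.4% in CON_56d and 12.0% in IR_56d, and the gap lay in the cells with 10 or more. After thinning to 1000 UMIs, the share with at least 3 was 2.69% (1.17 to 5.24), 1.89% (1.12 to 2.97), 3.18% (1.79 to 5.20) and 8.49% (5.11 to 13.1). Thinning left out 46, 167, 75 and 46 shallower cells. The thinned intervals overlapped at 24 hours, and at 56 days they overlapped only between 5.11% and 5.20%.

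**Figure D1:**
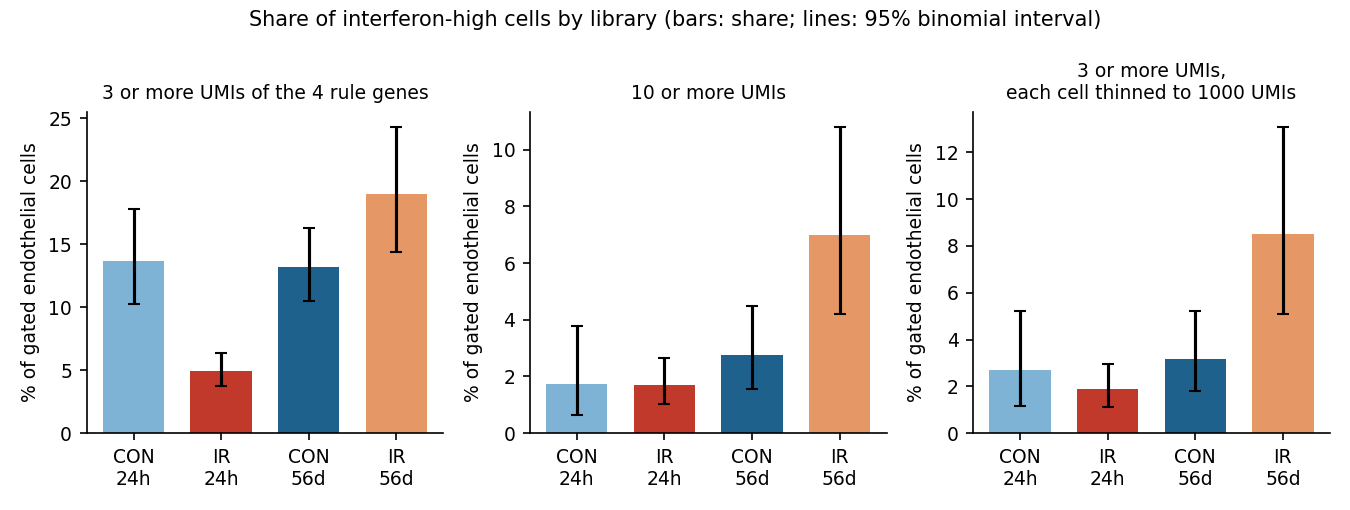
Share of capillary-type endothelial cells (y axis, percent) with 3 or more UMIs of Ifit1, Ifit2, Ifit3 and Rsad2 (left), with 10 or more (middle), and with 3 or more after each cell was thinned to 1000 UMIs (right), in each of the 4 libraries. Lines are exact 95% binomial intervals. IR_24h is lowest on the left at 4.91%, and IR_56d is highest in every panel, at 19.0%, 6.98% and 8.49%.

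Other cells of the same libraries gave the background of these genes. No B cell, of 330 with a median of 3080 UMIs, held 3 or more UMIs of the 4 genes, which allows a share of up to 0.909%. The share was 2.72% of pericytes (median 4469.5 UMIs) and 2.79% of Schwann cells (median 3557 UMIs), and 7.43% of fibroblasts, which had a median of 5743 UMIs. Endothelial cells with arterial genes reached 19.7% and those with tip cell genes 21.7%, at medians of 4223 and 5126 UMIs, while those with venous genes stood at 10.7% with 4497. These pooled shares hide differences between libraries. Fibroblasts stood at 0%, 5.06%, 5.79% and 18.6% (11 of 59, 9.69 to 30.9), so that in IR_56d their share was near the 19.0% of capillary-type cells. Pericytes stood at 1.41%, 1.66%, 1.53% and 7.37% (3.01 to 14.6), again highest in IR_56d. Endothelial cells with arterial genes stood at 28.9%, 12.6%, 24.7% and 20.7%, lower in the irradiated limb at both times with overlapping intervals at 56 days. Those with tip cell genes stood at 47.8%, 8.73%, 23.1% and 34.2%. Of those with venous genes, 4 of 44, 7 of 132, 11 of 72 and 10 of 50 cells held 3 or more UMIs. Both kinds were lower in the irradiated limb at 24 hours and higher at 56 days, as capillary-type cells were. Their intervals overlapped at both times, except for tip cell genes at 24 hours. After thinning to 1000 UMIs the fibroblasts of IR_56d stood at 5.56% and the pericytes of all 4 libraries at 0%.

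The 4 genes of the rule did not each mark the same cells. Rsad2, which makes an antiviral nucleotide, was found in 190 of the 223 members, Ifit3 in 135, Ifit1 in 113 and Ifit2 in 107, the last 3 being RNA-binding proteins that block translation of viral RNA. At least 2 of the 4 were found in 179 members (80.3%), and all 4 in 36. Just inside the limit, 102 members held 3 or 4 UMIs, and just outside it 132 cells held 2, while 1557 cells held none. The highest count in a member was 64 UMIs, in IR_56d. In members the 4 genes together stood at 1440, 1661, 1538 and 2428 CPM. Rsad2 stood at 672, 677, 764 and 957 CPM, Ifit3 at 372, 355, 199 and 577, Ifit1 at 248, 415, 295 and 490, and Ifit2 at 148, 213, 280 and 403. IR_56d was highest for each of the 4, and the rule makes all of these levels high in members.

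Genes outside the rule were then compared between members and the other cells. UMIs were summed over each kind of cell in each library, and the 8 sums were tested with edgeR's quasi-likelihood test with the library as a block and Benjamini-Hochberg adjustment over 6406 genes. Membership was set from UMIs of the same cells, so the test finds genes that vary with the 4 rule genes between cells. The libraries are different groups, so the spread between them includes whatever differs between groups. At an adjusted p of at most 0.05, 117 genes rose in members (1.83% of those tested) and 26 fell (0.406%). The direction was the same in 4 of 4 libraries for 101 and 23 of them, and 59 rose at least 2-fold. The lists below were written with earlier results of these data known, so their counts describe these cells.

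Antiviral effector genes were the largest set that rose. Of 48 listed, 32 were tested, 25 rose and none fell, with a median log2 difference of 1.15 against 0.01 over all genes tested. Isg15, a small ubiquitin-like protein that is coupled to other proteins and also secreted, stood at 758, 625, 323 and 1164 CPM in members and 85.8, 78.9, 59.5 and 140 in the other cells. The lowest member level, in CON_56d, was above the highest level of the other cells, in IR_56d. Isg15 rose by 2.97 on the log2 scale (SE 0.11, adjusted p 7.4e-23), and it was found in 62.8% of members and 16.1% of the other cells. Cmpk2, a nucleotide kinase that lies beside Rsad2, stood at 167, 198, 193 and 257 CPM in members and 40.9, 24.98, 41.1 and 43.4 in the other cells. Its level was above 160 CPM in every set of members and below 50 in every set of other cells, and it rose by 2.52 (SE 0.18, adjusted p 1.7e-13).

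Further effectors rose by 0.46 to 3.31 on the log2 scale. Oasl2, of the oligoadenylate synthetase family that senses double-stranded RNA, rose by 2.21. Ifi44 rose by 2.49, Isg20, an exonuclease that degrades viral RNA, by 2.53, and Rtp4 by 1.88. Eif2ak2, the kinase PKR that halts translation on binding double-stranded RNA, rose by 1.63. Ifit3b rose by 3.31, but it is a near copy of Ifit3, and counting could have divided their UMIs. Bst2, which tethers budding virus to the cell surface, stood at 1444, 1339, 1150 and 2162 CPM in members and 901, 727, 718 and 1159 in the other cells. Its ranges met, since the other cells of IR_56d were higher than the members of CON_56d, and within each library members were higher (log2 0.83, SE 0.09). Ifitm3, which blocks viral entry, rose by 0.55, while its relative Ifitm2 and Ifi27 had differences of -0.02 and -0.03, each with an adjusted p of 0.99.

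**Figure D2:**
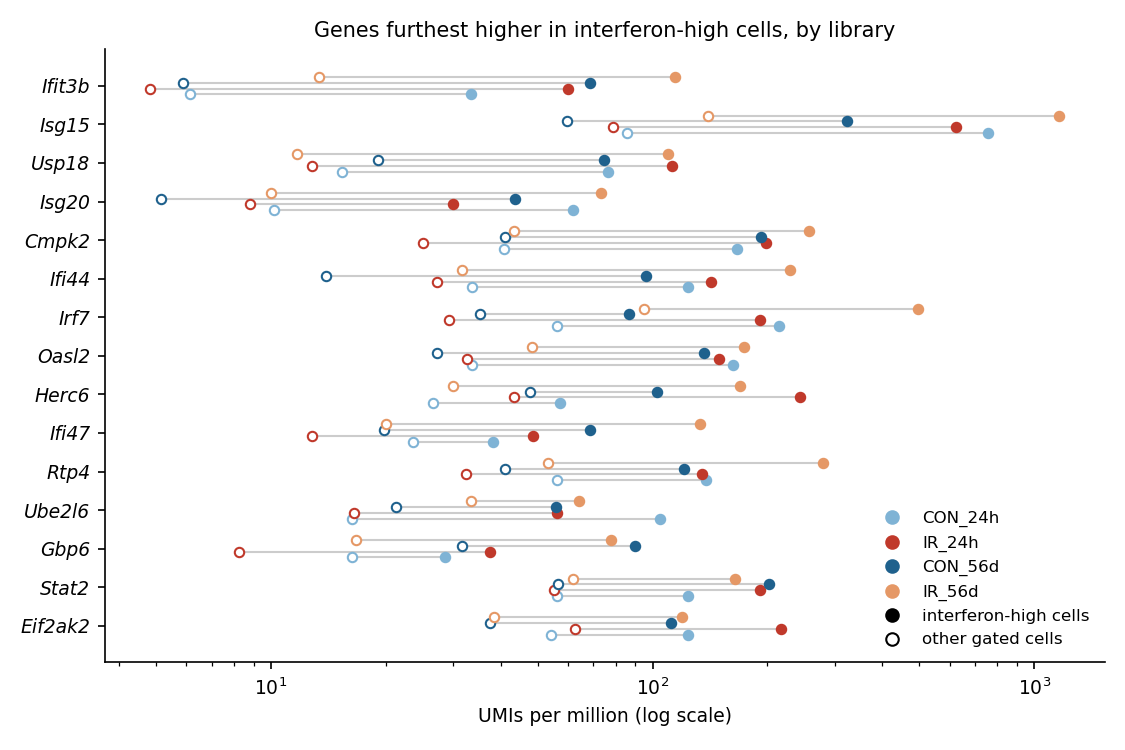
Levels (x axis, CPM on a log scale) of Isg15 and the other 14 genes named as furthest higher, in interferon-high cells (filled) and the other capillary-type cells (open) of each library. Each pair is joined by a line, and the filled point lies to the right in all 4 libraries for every gene shown.

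The DNA upstream of these genes was searched for the core letters of the interferon-stimulated response element. The letters GAAANNGAAA, read on either strand (TTTCNNTTTC on the other), were searched in the 250 bases upstream of the starts that RefSeq gives on GRCm38.p6. They were found for 3.46% of 27025 genes, 3.30% of 5147 tested genes that matched, 24 of 93 genes that rose and matched (25.8%), and none of 12 that fell and matched. Among interferon-gamma list genes that rose, 8 of 8 matched genes held them (Gbp2, Gbp3, Gbp5, Gbp7, Igtp, Irgm1, Irgm2 and Tgtp2). The counts for genes that rose were 8 of 23 antiviral effectors, 3 of 12 MHC class I genes, 1 of 3 signalling genes, 0 of 5 for Isg15 coupling and 0 of 3 for nucleic acid sensing. TTCNNNGAA, the core letters of the gamma-activated site that reads the same on both strands, was found for 8.13% of all genes, 6.45% of tested genes, 11 of 93 genes that rose (11.8%) and 5 of the 8 interferon-gamma list genes. Among the 4 rule genes, the letters of the interferon-stimulated response element were found for Ifit1, Ifit3 and Rsad2. Those of the gamma-activated site were found for 1 of the 4. Stretches of 50 bases that hold a match to the response element letters are shown for Ifit1, Ifit3, Rsad2, Isg15, Bst2 and Stat2. They are 5′ to 3′ on the gene's strand, with every such match within the stretch in capitals. Ifit3 holds 2 matches in its window, of which 1 lies in the stretch shown.

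Ifit1, chr19:34640784-34640833, + strand: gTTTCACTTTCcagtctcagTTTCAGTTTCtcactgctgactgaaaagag
Ifit3, chr19:34583387-34583436, + strand: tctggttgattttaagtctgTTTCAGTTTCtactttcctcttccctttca
Rsad2, chr12:26456543-26456592, - strand: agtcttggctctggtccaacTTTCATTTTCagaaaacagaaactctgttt
Isg15, chr4:156200855-156200904, - strand: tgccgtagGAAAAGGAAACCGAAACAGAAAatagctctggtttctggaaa
Bst2, chr8:71537567-71537616, - strand: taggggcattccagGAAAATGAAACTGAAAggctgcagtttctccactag
Stat2, chr10:128270256-128270305, + strand: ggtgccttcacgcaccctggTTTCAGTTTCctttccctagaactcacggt

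Isg15 and Bst2 hold overlapping matches, and Ifit3b holds the same 50 bases as Ifit3 at chr19:34607783-34607832. Ifit2, Cmpk2, Irf7, Oasl2, Ifi44, Isg20 and Herc6 hold no match to the response element letters in this window. A match describes the letters only, and binding was not measured. In the GENCODE annotation of GRCm38, Isg15 spans chr4:156199424-156200818, and the 3 Ifit genes of the rule lie together on chromosome 19, Ifit2 at 34550694-34576419, Ifit3 at 34583531-34588731 and Ifit1 at 34640871-34650009.

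The machinery that couples Isg15 to proteins rose with it. Of 10 genes listed for this and related ubiquitin and ADP-ribose modifiers, all 10 were tested, 8 rose and none fell, with a median log2 difference of 1.41. Usp18, the protease that removes Isg15 and also dampens the type I receptor, stood at 76.3, 112, 74.6 and 110 CPM in members and 15.3, 12.8, 19.1 and 11.7 in the other cells, with no overlap. It rose by 2.69 (SE 0.26, adjusted p 3.7e-10). Uba7, the activating enzyme, rose by 0.98, Ube2l6, the conjugating enzyme, by 1.74, and Herc6, the ligase used in mice, by 1.95. Parp14, Parp9 and Dtx3l rose by 1.45, 1.45 and 1.31. Trim25, another ligase on the list, had a difference of 0.33 (adjusted p 0.68).

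Among signalling genes the transcription factors rose and the receptors were not called. Of 18 listed, 15 were tested, 4 rose and none fell. Irf7, the factor that amplifies type I interferon, stood at 215, 191, 87.0 and 495 CPM in members and 56.2, 29.2, 35.3 and 95.03 in the other cells. Members of CON_56d were lower than the other cells of IR_56d, and members were higher in each of the 4 libraries (log2 2.21, SE 0.18, adjusted p 3.2e-12). Stat2 stood at 124, 191, 202 and 165 CPM in members and 56.2, 55.1, 56.6 and 61.7 in the other cells, with no overlap, and rose by 1.65 (SE 0.17). Irf9 rose by 1.10. The receptors Ifnar1, Ifnar2 and Ifngr1 had differences of 0.16, 0.01 and -0.01, and the kinase Jak1 0.11, each with an adjusted p of 0.908 or more.

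Cytosolic RNA sensors rose, and no interferon transcript was found in members. Of 19 sensing genes listed, 6 were tested and 3 rose: Ddx58 (RIG-I) by 1.15, Ifih1 (MDA5) by 1.41 and Samhd1, which depletes nucleotides, by 0.86. Tmem173, the adaptor STING of the cytosolic DNA pathway, stood at 14.3, 18.7, 28.0 and 9.16 CPM in members and 55.2, 40.3, 32.3 and 33.3 in the other cells. It was lower in 4 of 4 libraries but was not called (log2 -1.03, SE 0.34, adjusted p 0.13). None of 21 listed interferon genes had a UMI in members, and 0 UMIs allow up to 14.3, 11.2, 9.32 and 13.7 CPM. Over all barcodes, Ifnb1 was at 0 UMIs in the 4 libraries, and Ifng, the T and natural killer cell interferon, had 12, 19, 10 and 11.

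Genes best known as interferon-gamma targets rose too. Of 19 listed, 13 were tested and 12 rose, with a median log2 difference of 1.18. Iigp1, an immunity-related GTPase, stood at 572, 703, 954 and 884 CPM in members and 278, 202, 507 and 390 in the other cells, with no overlap, and rose by 1.28 (SE 0.11). Guanylate-binding proteins rose by 0.79 for Gbp4, 0.95 for Gbp9, 1.18 for Gbp2, 1.25 for Gbp7 and 1.72 for Gbp6. These families hold close paralogs, and UMIs could be shared between them. The chemokine Cxcl9 was the tested member not called, at 143, 195, 115 and 142 CPM against 204, 96.2, 95.5 and 105.

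Antigen presentation genes also rose in members. Of 19 genes for MHC class I and the immunoproteasome, 18 were tested and 13 rose, with a median of 0.53. B2m, the class I light chain, stood at 1120, 838, 1718 and 2726 CPM in members and 927, 801, 1345 and 1789 in the other cells. The libraries differed more than the cells did, with both kinds of cell highest in IR_56d, and B2m rose by 0.37 (SE 0.09, adjusted p 0.01). H2-K1 rose by 0.41 and H2-D1 by 0.28, the peptide transporter Tap1 by 0.88, and the immunoproteasome subunits Psmb8, Psmb9 and Psmb10 by 1.00, 0.76 and 0.61. No MHC class II gene passed the filter on low counts, and Cd74 stood at 4.77, 3.74, 21.7 and 13.7 CPM in members. Cd274 (PD-L1), an inhibitory ligand for T cells that is on none of the lists, stood at 62.0, 63.6, 190 and 151 CPM against 31.7, 27.3, 77.1 and 43.3 and rose by 1.38. It was singled out after its values were seen.

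**Figure D3:**
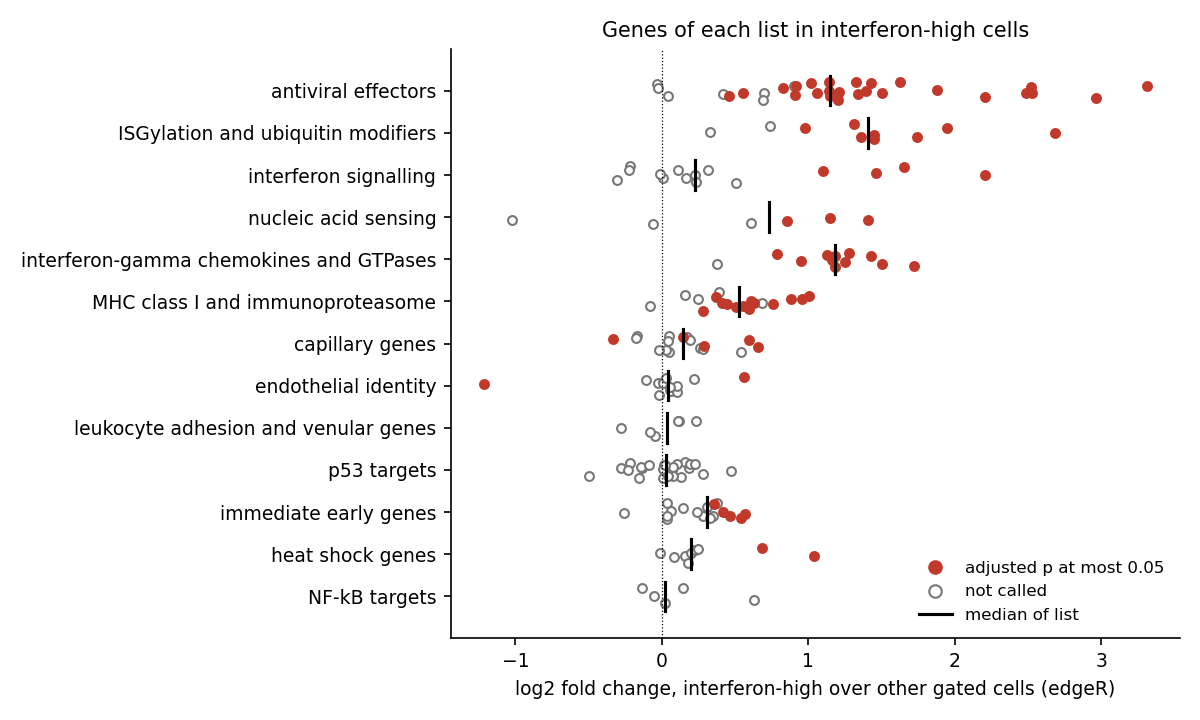
Log2 fold change between interferon-high and other capillary-type cells (x axis) for each tested gene of 13 lists, with called genes filled and the list median as a line. Antiviral effectors have the most filled points, 25 of 32, and endothelial identity and p53 targets lie around 0.

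Most capillary and endothelial genes were not called. Of 17 capillary genes, 4 rose and 1 fell, and of 14 endothelial identity genes, Sox17 rose by 0.56 and Plvap fell by 1.21, each in 3 of 4 libraries. Btnl9 stood at 243, 161, 96.3 and 22.9 CPM in members and 152, 110, 52.9 and 63.4 in the other cells. Members were higher in 3 of 4 libraries and lower in IR_56d, and the difference was not called (log2 0.54, SE 0.19, adjusted p 0.20). It was called without IR_56d (0.72, adjusted p 0.018), without mixed barcodes (0.70, adjusted p 0.0046) and with members from 5 rule UMIs (0.73, adjusted p 0.048). Over the other 11 alternatives the adjusted p ran from 0.14 to 0.9999. Car4, a carbonic anhydrase of the capillary lumen, rose by 0.60, and the surface proteins Ly6a and Ly6c1 by 0.66 and 0.29. Fabp4 rose by 0.15, though not once mixed barcodes were left out (log2 0.10, adjusted p 0.77). Aqp1, the water channel, stood at 3132, 3064, 4095 and 4132 CPM in members and 5341, 3669, 4898 and 4872 in the other cells, lower in each library, and fell by 0.34 (SE 0.07).

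Stress-related lists rose in part and p53 targets did not. Of 17 immediate early genes, which respond within minutes to growth factors, flow or tissue dissociation, 5 rose: Jun by 0.57, Junb by 0.54, Jund by 0.46, Ier2 by 0.42 and Klf2 by 0.36. Of 9 heat shock genes tested, Hspa1a rose by 1.04 and its near copy Hspa1b by 0.69, both in 3 of 4 libraries. None of 24 tested p53 targets and none of 5 NF-kB targets was called at an adjusted p of at most 0.05. Cdkn1a, the p53 target that halts the cell cycle, stood at 305, 2566, 190 and 1489 CPM in members and 316, 2407, 142 and 1516 in the other cells, high in both kinds of cell of the irradiated limbs and low in both of the shielded limbs. The part of tissue dissociation in these values was not tested.

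Of the 26 genes that fell, 7 were mitochondrially encoded, such as mt-Atp6, which fell by 0.37 beside a lower mitochondrial share in the members of each library. Lars2, a mitochondrial leucine tRNA synthetase, stood at 1220, 1306, 1131 and 1484 CPM in members and 1910, 1694, 1726 and 2361 in the other cells, with no overlap, and fell by 0.53. Mgp, a matrix protein that inhibits calcification, stood at 9.53, 74.8, 0 and 0 CPM in members and 22.5, 351, 543 and 21.7 in the other cells. Fibroblast markers lay the same way, and Dcn, Lum, Col1a1 and Col3a1 summed to 9.53, 22.4, 31.1 and 0 CPM in members and 52.1, 776, 521 and 13.3 in the other cells. Without barcodes that held 20 or more UMIs of another cell type's markers, Mgp, Thbs1, Tagln, Timp2 and Gsn no longer passed the filter on low counts. Odc1, Lgals1, Lars2 and Lama4, which fell by 1.10, 0.62, 0.53 and 0.47, were still called.

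Markers of other cell types were among the genes called higher. Globin genes summed to 51171, 542, 15127 and 64.1 CPM in members and 279, 2496, 233 and 152 in the other cells. A single member of CON_24h held 10678 globin UMIs and a single member of CON_56d 4709. Hbb-bt, Hba-a1 and Hba-a2 were called higher, and without the mixed barcodes the difference for Hbb-bt was -0.08 (adjusted p 0.99). The pericyte gene Rgs5 rose by 0.59, and without those barcodes its difference was 0.10 (adjusted p 0.92). Leaving them out gave 114 genes higher and 33 lower, of which 103 and 19 were among the 117 and 26.

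Levels of genes outside the rule climbed with the number of rule UMIs in a cell. Over cells with 0, 1, 2, 3 to 4, 5 to 9 and 10 or more UMIs of the 4 genes, Isg15 stood at 58.4, 120, 172, 229, 631 and 1404 CPM. The step at the threshold of the rule, from 172 to 229, was small beside the later steps. Irf7 stood at 34.5, 50.3, 66.7, 82.4, 267 and 417 CPM, and Ifi203, an interferon-inducible DNA-binding protein, at 242, 284, 263, 379, 649 and 1032. Fabp4 stood between 16417 and 22276 CPM with no such climb. In cells with 10 or more rule UMIs, Isg15 reached 1784, 1055, 691 and 2306 CPM, from 6, 19, 15 and 18 cells. The bins are a description, without a test, and their deeper cells hold more rule UMIs in part by depth.

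**Figure D4:**
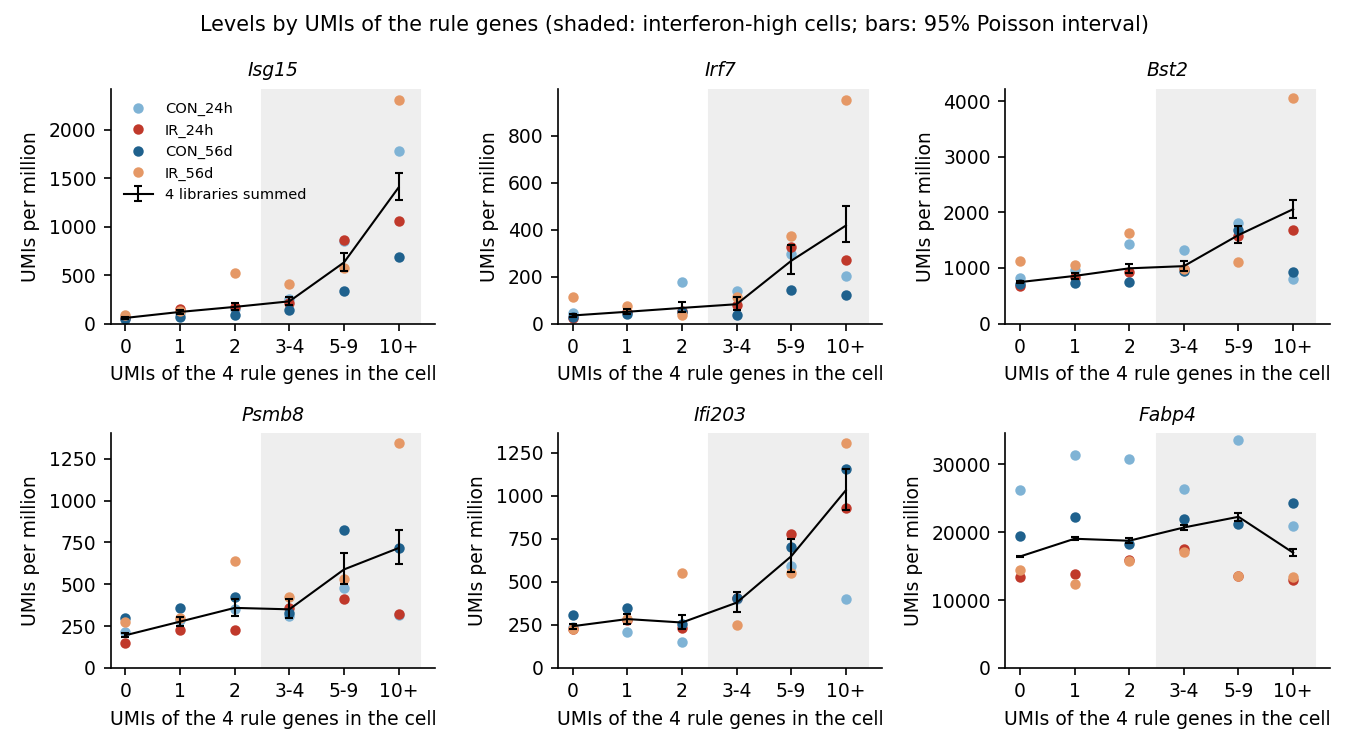
Level (y axis, CPM) of 6 genes by the number of UMIs of the 4 rule genes in a cell (x axis), with points for the libraries and a line for their sum with 95% Poisson intervals; interferon-high cells are shaded. Isg15, Irf7 and Ifi203 climb towards the right, Bst2 and Psmb8 climb less, and Fabp4 does not.

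Members held a larger share of Isg15, Cmpk2 and Bst2 UMIs than of all UMIs. Of all UMIs in capillary-type cells, 17.6%, 7.05%, 19.1% and 26.7% were in members. Of Isg15 UMIs, 65.4%, 37.5%, 56.2% and 75.1% were in members. For Cmpk2 the shares were 46.7%, 37.6%, 52.5% and 68.3%, and for Bst2 25.6%, 12.3%, 27.4% and 40.4%. The share of all UMIs is itself lowest in IR_24h and highest in IR_56d, and Fabp4 has the same order, at 17.9%, 7.79%, 20.8% and 27.6%. For the 4 rule genes the members' share is set by the rule.

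Irradiated and shielded members were compared at each time as ratios of CPM, with exact conditional binomial intervals that cover counting error only. Each ratio compares 1 library with 1 library, so none has a replicate check. At 24 hours 4244 genes had at least 20 UMIs in both libraries together, and in IR_24h 23.6% of these stood 1.5-fold or more above CON_24h and 11.3% as far below. At 56 days the shares were 15.4% and 16.8% of 4586 genes. In the other cells they were 18.3% and 6.97% at 24 hours and, at 56 days, 14.1% higher (1197 of 8490 genes) with 1275 lower. Members were a smaller part of the capillary-type cells in IR_24h (4.91%) than in CON_24h (13.7%). Whether this bears on the ratios was not tested.

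Antiviral effectors and MHC class I genes, each summed over its list, stood highest in the members of IR_56d. The antiviral list summed to 11111, 12255, 10420 and 16660 CPM and the MHC class I list to 6702, 5226, 9044 and 14631, while the list for Isg15 coupling was nearly level between IR_24h and IR_56d, at 1485 and 1475. Of 32 antiviral effectors measured at 56 days, 17 were at least 1.5-fold higher in IR and none was lower, with a median log2 ratio of 0.74 against 0.04 over all measured genes. At 24 hours 11 of 33 were higher and 2 lower, with a median of 0.19 against 0.12. In the other cells the medians of this list were 0.21 at 56 days and -0.12 at 24 hours. Isg15 in members was 3.60 times as high in IR as in CON at 56 days (2.86 to 4.57), and at 24 hours the ratio was 0.82 (0.66 to 1.03). Irf7 gave 5.69 (3.72 to 8.95) at 56 days and 0.89 (0.58 to 1.36) at 24 hours and Bst2 1.88 (1.64 to 2.16) and 0.93 (0.79 to 1.08). For each of these the highest member level was in IR_56d. The other cells were also higher in IR at 56 days, by 2.35 (1.71 to 3.23) for Isg15, 2.70 (1.80 to 4.04) for Irf7 and 1.61 (1.46 to 1.78) for Bst2. Their sums of the antiviral and MHC class I lists were highest in IR_56d too, at 8593 and 9890 CPM.

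Antigen presentation genes lay on opposite sides of 0 at the different times. Of 19 MHC class I and immunoproteasome genes measured at 56 days, 11 were at least 1.5-fold higher and 1 lower (median log2 0.60), and of 16 at 24 hours none was higher and 2 were lower (median -0.39). H2-K1 was 1.81 times as high in IR members at 56 days (1.61 to 2.04) and 0.85 times at 24 hours (0.71 to 1.03). The other capillary-type cells had medians of 0.33 at 56 days and -0.46 at 24 hours, on the same sides of 0. The interferon-gamma list did not follow at 56 days, with 1 of 14 genes higher, 1 lower and a median of -0.15. Genes for Isg15 coupling and related modifiers had medians of 0.43 at 24 hours and 0.34 at 56 days, and Herc6 was 4.25 times as high in IR at 24 hours (2.28 to 8.65) and 1.65 times at 56 days (1.01 to 2.73).

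**Figure D5:**
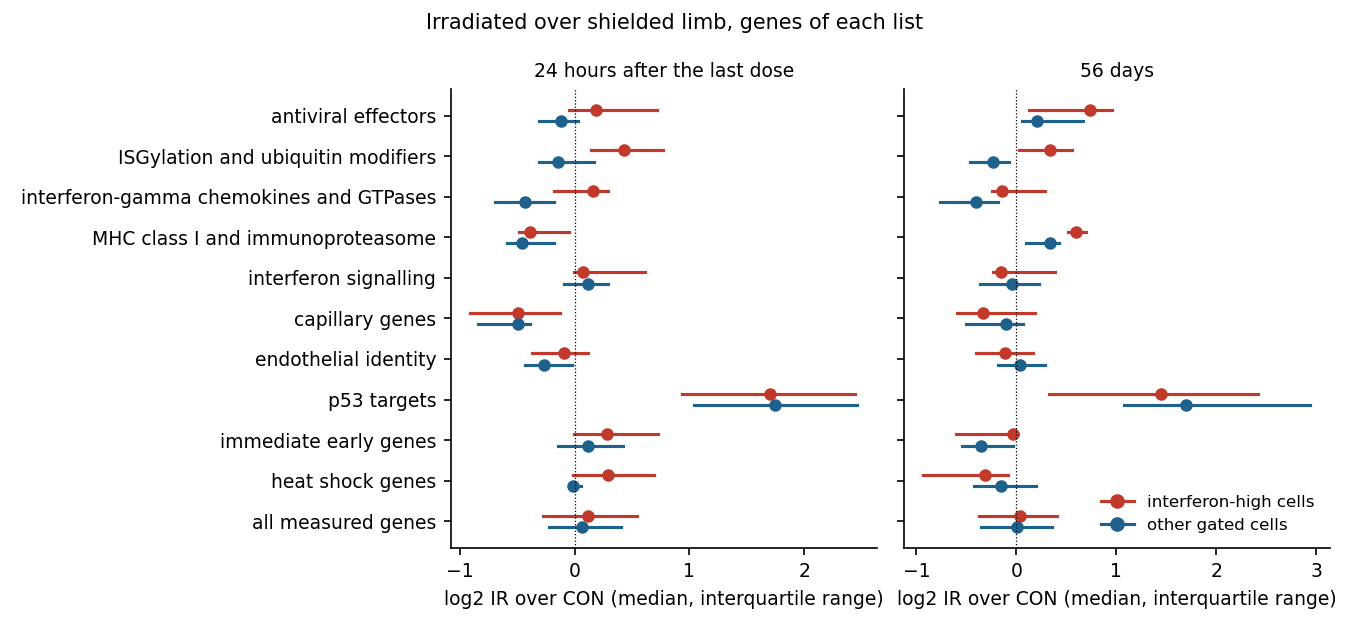
Median log2 ratio of irradiated over shielded limb (x axis, with the interquartile range of genes as a line) for each list, in interferon-high cells (red) and the other capillary-type cells (blue), at 24 hours (left) and 56 days (right). In interferon-high cells antiviral effectors lie at 0.19 and 0.74, MHC class I genes at -0.39 and 0.60, and p53 targets at 1.70 and 1.45.

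The p53 targets stood mostly higher in irradiated than in shielded members, as in the other cells, and the cause was not tested. At 24 hours 21 of 23 measured targets were at least 1.5-fold higher in IR members, and at 56 days 14 of 20 were higher and 2 lower, with medians of 1.70 and 1.45. The medians in the other cells were 1.74 and 1.70. Cdkn1a was 8.41 times as high at 24 hours (6.504 to 11.04) and 7.86 times at 56 days (5.96 to 10.5). Gdf15, a secreted stress cytokine, had 138 UMIs in IR_24h and 2 in CON_24h members, a ratio of 54.1 (14.7 to 452). It had 30 in IR_56d and 0 in CON_56d, at least 14.7-fold higher against 3 UMIs. Phlda3, an inhibitor of Akt, gave 4.88 (3.13 to 7.94) and 11.6 (6.47 to 22.5), Mdm2, the ligase that degrades p53, 6.73 (3.07 to 17.4) and 2.09 (0.94 to 4.79), and Ccng1 5.49 (2.82 to 12.0) and 2.27 (1.07 to 4.96). Ltc4s, leukotriene C4 synthase, which is on the p53 target list and so counted above, gave 37.7 (10.1 to 316) and 59.0 (19.7 to 290).

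Some capillary genes were at least 1.5-fold lower in irradiated members, and 1 was as far higher at each time. Of 17 measured, 8 were at least 1.5-fold lower and 1 higher at 24 hours (median log2 -0.49), and 6 lower and 1 higher at 56 days (median -0.33). The medians were -0.50 and -0.10 in the other cells. Btnl9 was 0.24 times as high at 56 days (0.07 to 0.62), from 5 UMIs in IR_56d and 31 in CON_56d, and 0.66 times at 24 hours (0.43 to 1.01). In the other cells its ratio at 56 days was 1.20 (0.79 to 1.80). Car4 was 0.17 times as high at 56 days (0.08 to 0.34), against 0.25 (0.16 to 0.38) in the other cells.

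A few of the widest ratios rested on 1 cell. At 24 hours the genes furthest lower included Alas2, Bpgm and Mkrn1, and the CON_24h cell with most UMIs held 100%, 92.6% and 85.7% of them. Aspn and Abcc9, furthest higher, had 62.2% and 76.9% of their IR_24h UMIs in 1 cell. Nav2 was 25.9 times as high at 24 hours (4.34 to 1054), from 33 UMIs in 18 cells against 1. Rbp7, a retinol-binding protein, was 0.11 times as high (0.06 to 0.19), with 40.4% of its CON_24h UMIs in 1 cell. Ltbp4, which stores latent TGF-beta in the matrix, was 0.30 times as high (0.21 to 0.42). In the other cells the ratios of Rbp7 and Ltbp4 were 0.55 and 0.46. At 56 days Myl1 and Acta2, furthest higher, had 90.0% and 94.7% of their IR_56d UMIs in 1 cell. Those furthest lower were Car4, the linker histone Hist1h1e at 0.21 (0.11 to 0.37), Rassf9 at 0.28 (0.18 to 0.41), and Ripk1, Rnf216 and Camsap2 at 0.11 to 0.15 from 2 or 3 UMIs in IR_56d.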

How the data were processed

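The authors deposited 10x Genomics 3′ single-cell UMI counts for 32285 genes and 4 libraries, made with Cell Ranger 5.0.0 on mm10 per the submitters' processing notes. The values are counts, not normalized. Planned depth was 10000 reads per cell, per the labels. The members and gene lists were chosen with earlier results of these data known. Doublets were not called; barcodes with 20 or more UMIs of 1 other cell type's markers were left out as an alternative chosen after seeing the data.

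UMIs were summed over members and over other capillary-type cells per library and tested with edgeR 4.0.16 in R 4.3.3 (quasi-likelihood, TMM, filterByExpr, library as block, Benjamini-Hochberg over all 6406 genes that passed). The rule's genes were not tested. Members and other cells of 1 library share its animals and preparation, and their deviations correlated at 0.28 to 0.45 within libraries and from -0.22 to -0.05 between them. Irradiated over shielded ratios used genes with at least 20 summed UMIs and a 1.5-fold limit, with 95% intervals and no test. A count of 0 was bounded with 3 UMIs. Intervals cover counting error only. The test was checked on simulated data. There it called 51.0% of genes with a true log2 of 1, 33.3% at -1, 100% at 2 and 97.6% at -2. Of genes with no true difference it called 0.07%. The simulation gave every gene the same spread and did not choose members by their UMIs, so it could not check the effect of that choice.

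Named genes were the 15 furthest higher and 10 furthest lower of the called genes with 1 direction in 4 libraries, leaving out mitochondrial, ribosomal, haemoglobin, sex-linked, immune receptor and predicted genes, then Isg15, Btnl9 and the most abundant members of each list. For the ratios they were the 6 furthest each way by the interval bound nearest 1, and 9 fixed genes; others were named after their values were seen. DESeq2 1.42.0 was an alternative, and numpy 2.4.6, scipy 1.17.1, pandas 2.3.3 and matplotlib 3.10.9 under Python 3.11.15 were used elsewhere. Some named genes are not reported here.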

Additional observations from a re-analysis of the deposited data

Results flagged for a closer look

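The share of interferon-high cells lay on opposite sides at the different times. The irradiated share was 0.358 times the shielded share at 24 hours and 1.44 times at 56 days, where the intervals of the limbs overlapped. After thinning to 1000 UMIs the ratios were 0.700 and 2.67. With 1 library per group this difference was not tested.

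Of 214 list genes compared, 15 had ratios of irradiated over shielded members whose counting intervals lay on opposite sides of 1 at the different times. None of these differences was tested. Genes outside the lists were not counted in this way, so whether 15 of 214 is more than the general rate is not known. In 12 of the 15 the ratios of the other capillary-type cells lay on the same sides. Antigen presentation genes were lower at 24 hours and higher at 56 days, with B2m at 0.748 and 1.59, H2-D1 at 0.712 and 1.69, and Tap1 at 0.557 and 2.36. The endothelial genes Cxcl12 (0.526 and 1.14), Gpihbp1 (0.808 and 1.23) and Sox18 (0.670 and 1.43) lay the same way, as did Id3 (0.759 and 1.20) and Pttg1 (0.529 and 1.75).

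Immediate early and heat shock genes lay the other way, higher at 24 hours and lower at 56 days. Egr1 had ratios of 1.74 and 0.516, Fos 1.98 and 0.395, and Jun 1.35 and 0.443. Hspa1a had 1.86 and 0.445 and its near copy Hspa1b 2.80 and 0.521. Plk2, a p53 target, had 1.90 and 0.481, and the receptor Flt1 1.16 and 0.804.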

How the results depend on the processing

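The limits are 1 library per group, 55 or fewer members in 3 libraries, and members chosen by UMIs of the cells tested. Against 117 genes higher and 26 lower, thinning gave 48 and 12 of 2327 tested, leaving out cells with any other cell type's marker gave 48 and 8 of 2682, and the fit with no replicate block gave 35 and 0 (263 at an unadjusted p under 0.05, against 552 with the block). Lower calls were 10 with DESeq2, 95 with every gene tested and 17 with members from 2 UMIs. Leaving out each library gave 87 to 134 higher, the fewest without IR_56d and the most without CON_24h, and 16 to 34 lower.

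The share of members was 19.8%, 8.65%, 22.9% and 25.2% from 2 UMIs, 7.87%, 2.50%, 6.78% and 11.2% from 5 UMIs, and 2.69%, 1.89%, 3.18% and 8.49% after thinning. Genes past 1.5-fold at 24 hours numbered 169 higher and 182 lower after thinning, 306 and 145 from 50 UMIs, and 237 and 215 without other markers, with 304 lower from 5 rule UMIs. At 56 days they numbered 183 and 175, 240 and 245, and 305 and 250. List medians at 24 hours moved to 0.99 (thinned), 0.85 (50 UMIs) and 1.21 (no other markers) for Isg15 coupling, 0.41 for interferon-gamma genes (5 UMIs), -0.079 for antiviral effectors (2 UMIs) and -0.50 for MHC class I (no other markers). At 56 days they moved to 0.60 for Isg15 coupling and 0.45 for MHC class I when thinned, and 0.39 for MHC class I without other markers.

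Log2 values changed sign for Thbs1 (0.0025) and Gsn (0.21) from 2 UMIs and Hbb-bt (-0.082) without mixed barcodes. Ratios changed sign for Mkrn1 (0.14 without its top member, 0.81 without other markers, 0.21 without mixed barcodes), Abcc9 (-1.06 and -0.28), Bpgm (0.21), Acta2 (-0.71), and, when thinned, Ifit2 (-0.54) and Rsad2 (-0.29). The cause was not tested. Of 811 values for 62 named called genes over 14 alternatives, 668 kept their call, 140 lost it and 3 changed sign.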
